A study of Mus musculus with 6 samples.

Results

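Acetyl and methyl groups on histone tails and methyl groups on cytosines are written and removed by a few families of enzymes, and 64 genes of these families are described here in mouse lumbar spinal cord after saline or morphine. They were taken by symbol from the 52513 genes of the deposited table: the zinc-dependent histone deacetylases (Hdac), the NAD-dependent sirtuins (Sirt), the lysine acetyltransferases (Kat), the lysine methyltransferases named Kmt2, Kmt5 and Setd, the lysine demethylases (Kdm), the DNA methyltransferases (Dnmt) and the TET dioxygenases. The demethylases Kdm5d, Kdm6a and Kdm6b were left out by the rule, which rests on symbols and on no measured value.

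The mice were wild type and received saline or morphine (10 µg in 10 µL) by intrathecal injection for 7 days, and segments L4 to L5 were taken for total RNA. Each group held 3 libraries, which keep the number of their title. Runs of numbers in the descriptions leave unsaid whether a library pooled animals, so p-values measure the spread between these libraries, with strain, sex and age not given in the sources used here. Values are FPKM, fragment numbers divided by transcript length and by the mapped fragments of the library, so levels of different genes can be set side by side.

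Acetylation of histone lysines loosens the grip of histones on DNA and is read by bromodomain proteins, while deacetylases, working inside corepressor complexes, take it away. Methylation acts by position: on lysine 4 of histone H3 (H3K4) it marks promoters and enhancers, on H3K36 the bodies of transcribed genes, and on H3K9 and H4K20 mostly silent chromatin. DNA methyltransferases copy or set methyl groups on CpG sites, and TET enzymes oxidise them. In the spinal cord these enzymes have been studied in chronic pain and opioid tolerance, and the title of the series names Ezh2, another histone methyltransferase.

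The libraries had an estimated 17.8 to 26.1 M fragments, and 22754 to 23492 genes were above 0 in each. The tissue label was matched by its markers: Snap25, a synaptic protein of neurons, lay between 1498 and 1797 FPKM, Mbp, a myelin protein, between 8256 and 13192, and Gfap, of astrocytes, between 386 and 711. Markers of choroid plexus (Ttr, 0.15 FPKM or less) and sensory ganglion (Trpv1, 0.24 or less) were near 0. Motor neuron markers split the libraries across the groups, with a mean log2 level over 8 genes of 4.07, 3.96 and 2.48 in saline 1, 2 and 3 and 2.83, 3.95 and 2.10 in morphine 1, 2 and 3. The sum of 4 globin genes and Alas2 was lower in all morphine libraries, at 421 to 595 FPKM against 757 to 1077 FPKM, while Alas2 alone, an enzyme of heme synthesis, overlapped (1.37 to 3.08 FPKM after saline, 1.51 to 2.57 after morphine). The part of these cell types in the results was not tested. In bulk tissue, fewer cells of a type and less RNA per cell cannot be told apart.

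No enzyme gene passed the test between morphine and saline. Of the 64 genes, 60 reached 1 FPKM in at least 3 libraries and were tested with limma among 14614 genes. At an adjusted p under 0.05, 0 were called, against 1.51% of all tested genes (0.944% higher and 0.561% lower). An unadjusted p under 0.05 was found for 8 (13.3%), against 22.3% of all genes, of which 2 were higher (Hdac3 and Setd4, background 11.2%) and 6 lower (Setd7, Kdm2a, Kdm3a, Kat6a, Kdm5b and Kdm1a, background 11.1%). The 3 morphine values lay all above or all below the 3 saline values in 11 of the 60 (18.3%), against 28.7% of all genes, 3 of them higher (background 13.0%) and 8 lower (background 15.7%). The median log2 fold change of the 60 was -0.04, beside -0.02 over all tested genes, and the values ran from -0.35 to 0.50. Without morphine 2, 7 of the 60 were higher and 4 lower at an unadjusted p under 0.05, and their median was 0.00. Hdac3 alone of the 60 passed, beside 535 genes higher and 287 lower among all 14450 tested. Without morphine 1, 1 of the 60 was higher and 8 lower, the median was -0.05 and 0 passed. Without each of the other 4 libraries in turn 1 to 2 were higher, 2 to 4 lower and 0 passed. The share of all genes at an unadjusted p under 0.05 was not computed for these fits.

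**Figure D1:**
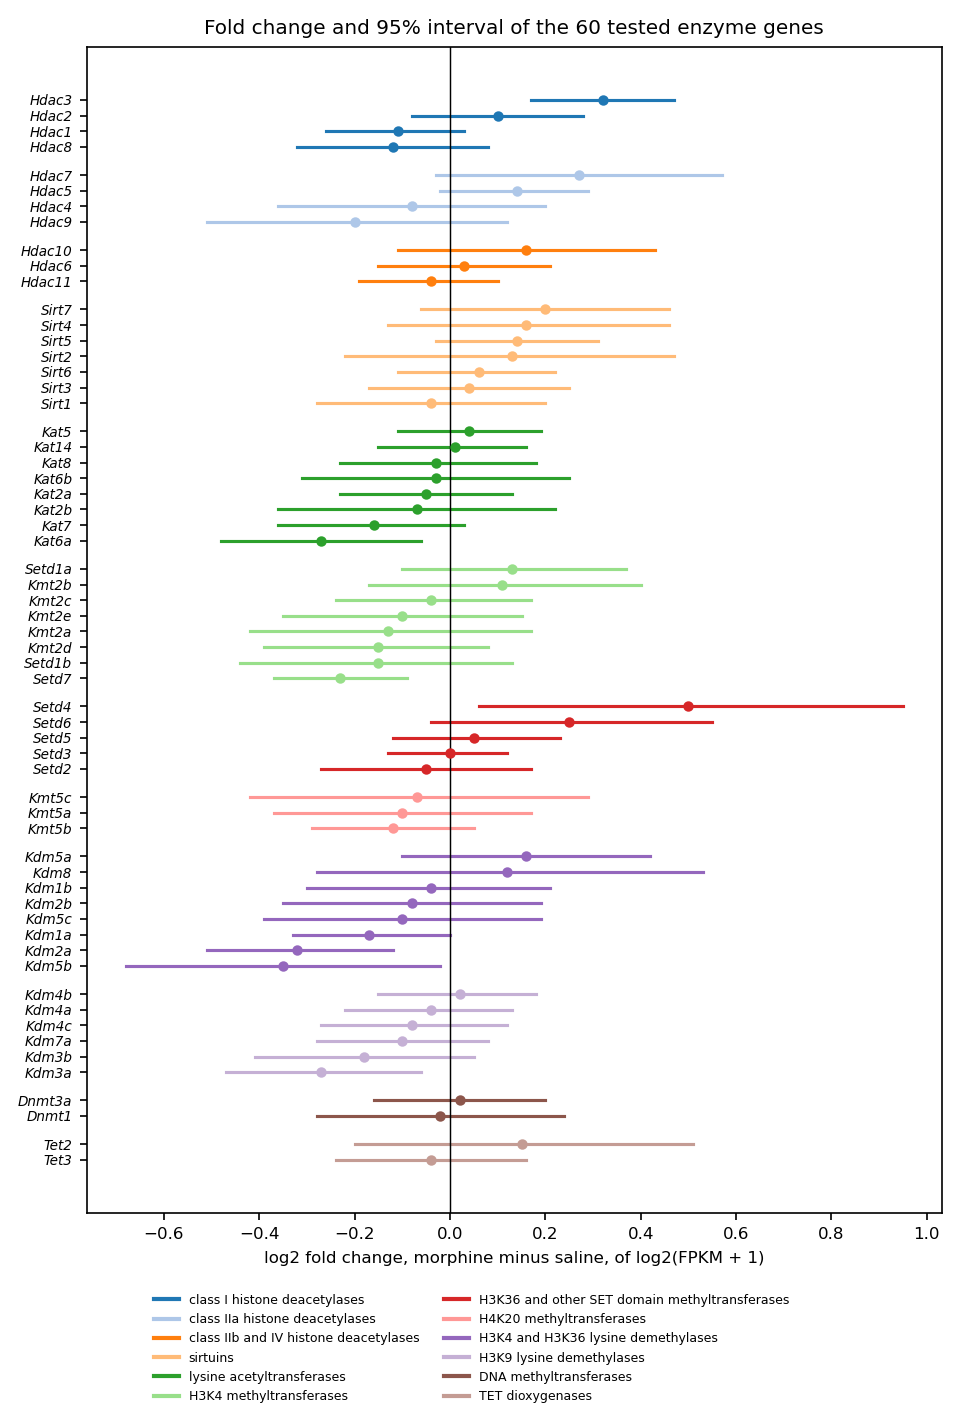
Log2 fold change of morphine minus saline on the log2(FPKM + 1) scale (horizontal axis) with limma's 95% interval for the 60 tested genes, grouped and coloured by family. Hdac3 (0.32) and Setd4 (0.50) lie farthest to the right with intervals clear of 0, and Kdm5b (-0.35) and Kdm2a (-0.32) farthest to the left.

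The enzyme genes span a wide range of levels in the cord. The median saline level of the 60 tested genes was 10.8 FPKM, the same as for all tested genes, and 13 of the 60 were above 20 FPKM. A single gene led several families: Sirt2 gave 63.6% ± 5.01 of summed sirtuin FPKM after saline and 64.1% ± 4.43 after morphine (SD, n = 3 each), and Hdac11 gave 33.7% ± 0.661 and 31.1% ± 2.01 of the FPKM summed over the Hdac genes. The next most abundant were Setd3, which methylates a histidine of actin despite its SET domain, at 66.0 ± 2.45 FPKM after saline and 65.8 ± 1.56 after morphine, and Hdac5, at 65.1 ± 3.57 and 71.7 ± 3.41 FPKM (SD, n = 3 each). At the other end, Tet1, Kdm4d, Dnmt3l and Dnmt3b did not reach the level set for testing.

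**Figure D2:**
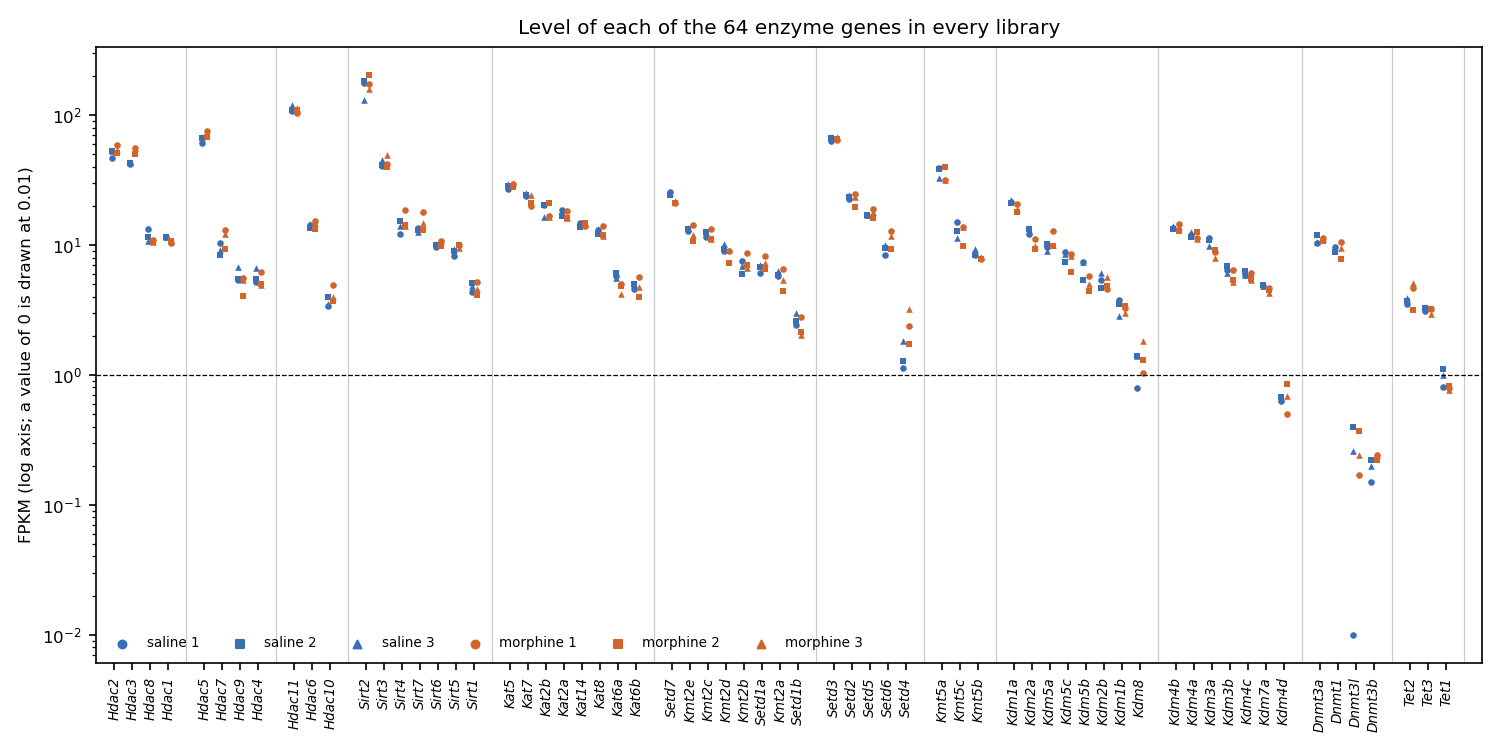
FPKM on a log axis for all 64 genes, ordered within each family by mean after saline, with saline libraries in blue and morphine libraries in orange (circle, square and triangle for libraries 1, 2 and 3). The dashed line is 1 FPKM; Sirt2 and Hdac11 stand above 100 FPKM in every library and 4 genes lie mostly below 1.

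Promoters of these genes were searched for CpG, the dinucleotide that Dnmt and TET enzymes act on. RefSeq promoter windows of 300 bases (250 before to 50 after a start, GRCm38.p6) were held for 53 of the 64 genes, the others being Hdac1, Hdac3, Hdac10, Kat6a, Kdm2a, Kdm3b, Kdm4b, Kdm5a, Kmt2b, Kmt2e and Setd1b. In the richest window of each gene the median was 27 CpG for the 49 tested genes with a window and 22 for the 10421 tested genes of all kinds with one. The following promoters are shown because they belong to the most abundant gene of the 64, to the gene with the smallest p among those lower with morphine, and to one of the genes at the bottom of the range; each line gives the 250 bases before the start, 5′ to 3′ on the gene's strand, with every CpG in capitals.
Sirt2: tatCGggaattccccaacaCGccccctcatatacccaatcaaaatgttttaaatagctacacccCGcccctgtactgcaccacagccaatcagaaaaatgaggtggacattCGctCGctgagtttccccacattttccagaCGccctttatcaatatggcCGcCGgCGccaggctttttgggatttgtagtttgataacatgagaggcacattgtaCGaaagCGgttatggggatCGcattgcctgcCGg
Setd7: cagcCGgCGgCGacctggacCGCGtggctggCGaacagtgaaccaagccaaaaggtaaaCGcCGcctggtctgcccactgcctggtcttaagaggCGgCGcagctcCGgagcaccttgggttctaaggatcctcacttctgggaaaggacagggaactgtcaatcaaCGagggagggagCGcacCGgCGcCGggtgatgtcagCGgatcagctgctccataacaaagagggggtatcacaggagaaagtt
Dnmt3l: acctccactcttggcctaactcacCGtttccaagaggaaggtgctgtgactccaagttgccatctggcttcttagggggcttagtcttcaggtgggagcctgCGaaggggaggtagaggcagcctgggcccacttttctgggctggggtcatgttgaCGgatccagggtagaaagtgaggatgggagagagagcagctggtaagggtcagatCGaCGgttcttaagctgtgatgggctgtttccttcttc
The Sirt2 stretch (chr7:28766502-28766751, plus strand) holds 13 CpG, the Setd7 stretch (chr3:51560824-51561073, minus strand) 17, and that of Dnmt3l (chr10:78042037-78042286, plus strand, the richest of 3 windows) 5. CpG number and level did not go together in every gene: Setd5, at 17.1 FPKM after saline, had 1 CpG in its window and Dnmt3b, at 0.190 FPKM, had 30. The relation over all 53 genes was not tested. Both strands of all 79 windows were searched for 4 motifs. Among tested genes, GGGCGG, the GC box, which itself holds a CpG, was found in 46 of 73 windows (63%) against 61.6% of 13461 windows, and in 64.6% of the 79 against 35.7% of all promoter windows. CCAAT was found in 41.1% against 37.4% of windows of tested genes. TATAAA was found in 2.74% against 7.24%, and TGACGTCA, the palindromic cyclic AMP response element, in 0 of 73 against 3.01%.

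Among the class I deacetylases, nuclear enzymes that remove acetyl groups from histones within corepressor complexes, Hdac3 had the smallest p of all 60 genes. Hdac3 is the catalytic subunit of the NCoR and SMRT complexes and lies on chromosome 18 from 37935844 to 37955016 (mm10, minus strand). It measured 41.9, 42.9 and 43.3 FPKM in saline 1, 2 and 3 and 55.5, 49.9 and 55.6 FPKM in morphine 1, 2 and 3. Every morphine value exceeded every saline value, and morphine 2 was the nearest to the saline range. The ratio of means was 1.26, and the log2 fold change was 0.32 (SE 0.06, 95% interval 0.17 to 0.47), with a limma adjusted p of 0.0548. The exact permutation test gave p = 0.1, the smallest that 3 against 3 libraries allows. Over the other settings tried the adjusted p ran from 0.0293 to 0.184, and without morphine 2 it was 0.0323.

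The other class I genes were close between the groups. Hdac1, which pairs with Hdac2 in the Sin3, NuRD and CoREST complexes, measured 11.5, 11.4 and 11.5 FPKM after saline and 10.3, 10.7 and 10.7 after morphine, all below saline. Hdac2 was the most abundant of the 4 after saline at 50.9 ± 3.35 FPKM and overlapped with morphine at 54.7 ± 3.89, and Hdac8, an X-linked enzyme that also deacetylates cohesin, was at 11.9 ± 1.20 and 10.8 ± 0.201 FPKM (SD, n = 3 each). Within a library, a ratio does not depend on scaling between libraries: Hdac3 over Hdac1 was 3.63, 3.75 and 3.77 after saline and 5.40, 4.67 and 5.20 after morphine. Hdac2 over Hdac1 was 4.08, 4.62 and 4.60 after saline and 5.74, 4.81 and 5.04 after morphine, again without overlap. Of 9 ratios and shares computed between enzymes or families, 4 did not overlap between the groups, beside 28.7% of all single genes. The others were the sum of Hdac genes over that of Kat genes and the share of Hdac11. All 4 use Hdac1 or the summed Hdac genes as a part, so they are not separate results. How often ratios of other genes do not overlap was not computed.

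Class IIa deacetylases shuttle between nucleus and cytoplasm with phosphorylation and recruit Hdac3 complexes rather than acting strongly themselves. Hdac5 measured 60.9, 66.9 and 67.4 FPKM after saline and 75.2, 68.4 and 71.5 after morphine. The groups did not overlap, yet morphine 2 exceeded saline 3 by little (log2 fold change 0.14, SE 0.07, limma adjusted p = 0.266). Hdac7, known from endothelium and lymphocytes, was at 9.30 ± 0.950 and 11.5 ± 1.87 FPKM, while Hdac4 and Hdac9 were at 5.76 and 5.88 FPKM after saline and at 5.39 and 5.01 FPKM after morphine. A noncoding gene on the opposite strand covers 22.4% of the exonic sequence of Hdac4, and no source used here says whether counting used strand.

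Hdac11, the sole class IV enzyme and a fatty-deacylase of lysines, was the second most abundant gene of the 64, at 107, 110 and 119 FPKM after saline and 104, 110 and 113 FPKM after morphine. The ranges overlapped. A noncoding gene model on the opposite strand covers 15.4% of its exonic sequence. Of the class IIb genes, Hdac6, a tubulin deacetylase of the cytoplasm, was at 14.1 ± 0.527 and 14.4 ± 1.05 FPKM. Hdac10, a polyamine deacetylase, measured 3.39, 3.97 and 3.50 FPKM after saline and 4.89, 3.70 and 3.95 after morphine, with morphine 1 alone above the saline range (log2 fold change 0.16, SE 0.11, limma adjusted p = 0.444).

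Sirtuins couple deacylation to NAD, and Sirt3, Sirt4 and Sirt5 work in mitochondria while Sirt1, Sirt6 and Sirt7 are nuclear. Of the 7, 6 had a log2 fold change above 0, as did 6849 of all 14614 tested genes. By limma 0 passed, and 0 were at an unadjusted p under 0.05, against 22.3% of all genes. Sirt5, a desuccinylase, measured 8.26, 8.99 and 9.29 FPKM after saline and 10.0, 10.0 and 9.46 after morphine, which did not overlap (log2 fold change 0.14, SE 0.07, limma adjusted p = 0.314). Sirt7, an enzyme of the nucleolus, was at 13.0 ± 0.505 and 15.2 ± 2.39 FPKM, and its highest value, 17.8 FPKM, was in morphine 1. Sirt3, the main mitochondrial deacetylase, was at 42.4 ± 2.61 and 43.8 ± 4.72 FPKM, Sirt4 at 13.8 ± 1.59 and 15.6 ± 2.51, and Sirt6, which acts on H3K9 and H3K56, at 9.98 ± 0.241 and 10.4 ± 0.520. Sirt1, the deacetylase of p53 and Foxo factors, was the lowest of the family at 4.77 ± 0.393 and 4.62 ± 0.526 FPKM (SD, n = 3 each).

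Sirt2, a cytoplasmic tubulin deacetylase that is abundant in myelin, varied more between libraries than between groups. It measured 177, 185 and 132 FPKM in saline 1, 2 and 3 and 175, 204 and 158 FPKM in morphine 1, 2 and 3. Morphine 2 was the highest and saline 3 the lowest, and the groups overlapped. Mbp had the same order over the 6 libraries, at 11469, 12336 and 8256 FPKM after saline and 10893, 13192 and 9819 FPKM after morphine. The sum of 6 oligodendrocyte markers, Mbp among them, also had this order, which 0.582% of all tested genes had. The part of these markers in the level of Sirt2 was not tested. With the motor neuron list as a covariate, Sirt2 had a log2 fold change of 0.26 and a limma adjusted p of 0.0468; without it the values were 0.13 and 0.651. Mbp, the marker sum and these test values of Sirt2 were chosen outside the rule, after the values were seen.

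The lysine acetyltransferases, which write the mark that deacetylases remove, had 0 calls by limma among 8 genes. An unadjusted p under 0.05 was found for 1 (12.5%, against 22.3% of all genes). The 8 summed to 127.7, 126.9 and 126.9 FPKM after saline and to 122.9, 121.9 and 122.2 FPKM after morphine, without overlap. Of the 12 family sums, 3 did not overlap (class I deacetylases higher, acetyltransferases and H3K9 demethylases lower), beside 28.7% of all single genes, and in this family 1 of 8 genes did not. Kat6a (MOZ), an acetyltransferase of H3K9 and H3K23 on chromosome 8 from 22859535 to 22943259 (plus strand), measured 5.81, 6.12 and 5.60 FPKM after saline and 5.05, 4.85 and 4.20 after morphine. All 3 morphine values were the lower ones (log2 fold change -0.27, SE 0.09, limma adjusted p = 0.145). Kat7 (HBO1), which acetylates H3K14, was at 24.4 ± 0.652 and 21.7 ± 2.22 FPKM, with morphine 3, at 24.2 FPKM, inside the saline range. Kat5 (Tip60), of the NuA4 complex, was the most abundant at 28.3 ± 1.27 and 29.1 ± 1.21 FPKM (SD, n = 3 each). Kat14, of the ATAC complex, was at 14.4 FPKM in both groups, Kat8 (MOF), which acetylates H4K16, at 12.8 and 12.6 FPKM, and Kat6b, the paralog of Kat6a, at 4.87 and 4.79 FPKM. Exons of Rnaseh2c on the opposite strand cover 12.1% of Kat5, and those of Pet117 on the same strand 14.7% of Kat14.

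Kat2a and Kat2b (GCN5 and PCAF), alternative catalytic subunits of SAGA, were at 17.5 and 19.0 FPKM after saline and at 16.9 and 18.1 FPKM after morphine. Kat2b measured 20.2, 20.3 and 16.5 FPKM after saline and 16.7, 21.1 and 16.4 after morphine. It was thus higher in the 3 libraries with more motor neuron marker RNA (saline 1, saline 2 and morphine 2) than in the other 3, as were Kmt5a, Kdm1b and Sirt2; 9.87% of all tested genes had that order, and 4 of these 60 did. The same 3 libraries were also highest for the sum of 6 astrocyte markers (1038, 1015 and 1117 FPKM against 802 to 833). Of these markers Gfap alone had this order, at 594, 579 and 711 FPKM against 386 to 455. Aqp4, Aldh1l1, Slc1a2, Slc1a3 and Gja1 overlapped. The mean log2 level of 9 neuron markers was higher there too (8.44 to 8.54 against 8.18 to 8.28), but single neuron markers differed. Nefl, Nefm, Nefh and Tubb3 were higher in these libraries, and Eno2 and Stmn2 overlapped. Rbfox3, Snap25 and Syt1 were lower there, Rbfox3 at 73.7, 77.8 and 74.6 FPKM against 87.4 to 93.7. Summed oligodendrocyte markers were higher in the same libraries (6 summed, 19953, 20970 and 22327 FPKM against 14330 to 17876), as were the summed markers of Schwann cells and of meninges and fibroblasts. These cell types cannot be told apart in this order. In 10 of the 60 the order was opposite, against 13.3% of all genes. The sum over the Hdac genes divided by that over the Kat genes was 2.51, 2.62 and 2.72 after saline and 2.92, 2.76 and 2.92 after morphine, and the groups did not overlap.

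Of the H3K4 methyltransferases, Setd7 stood lowest in fold change. Setd7, a monomethyltransferase of H3K4 and of nonhistone proteins, lies on chromosome 3 from 51515319 to 51560879 (minus strand). It measured 25.8, 24.4 and 25.1 FPKM after saline and 21.0, 20.9 and 21.8 FPKM after morphine. The gap between the groups exceeded the range inside either, and the ratio of means was 0.847 (log2 fold change -0.23, SE 0.06, 95% interval -0.37 to -0.09, limma adjusted p = 0.0797). Rescaled to an equal sum in every library (TPM), its log2 fold change was -0.36 with an adjusted p of 0.039, and with the length trend removed it was -0.16 with an adjusted p of 0.216.

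The large COMPASS enzymes Kmt2a to Kmt2d, Setd1a and Setd1b overlapped between the groups, as did Kmt2e (MLL5), a relative counted here by its symbol and not known as a COMPASS enzyme. Kmt2c and Kmt2d (MLL3 and MLL4), which methylate H3K4 at enhancers, were at 12.2 ± 0.563 and 9.49 ± 0.621 FPKM after saline and at 11.9 ± 1.19 and 8.47 ± 0.989 FPKM after morphine. Kmt2e measured 12.8, 13.2 and 13.5 FPKM after saline and 14.3, 10.7 and 12.0 after morphine, so morphine held both the highest and the lowest value. Setd1a shares 51.8% of its exonic sequence with a protein-coding gene model on the same strand, and its 6.61 and 7.36 FPKM are uncertain as a measure of that gene alone. Kmt2a and Kmt2b (MLL1 and MLL2) were at 6.00 and 6.83 FPKM after saline and at 5.46 and 7.48 FPKM after morphine, and Setd1b was the lowest at 2.67 and 2.31 FPKM. The sum over these genes and Setd7 divided by that over Kdm1a, Kdm1b, Kdm5a, Kdm5b and Kdm5c was 1.66 ± 0.0656 after saline and 1.67 ± 0.0169 after morphine (SD, n = 3 each).

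Setd2, the enzyme that trimethylates H3K36 behind RNA polymerase, was at 23.3 ± 0.953 FPKM after saline and 22.6 ± 2.69 after morphine, and Setd5, a related SET protein, at 17.1 ± 0.0643 and 17.8 ± 1.43 FPKM. Setd4 had the largest fold change of the 60 genes and one of the lowest levels, at 1.13, 1.28 and 1.84 FPKM after saline and 2.40, 1.72 and 3.23 after morphine. Morphine 2 lay inside the saline range (log2 fold change 0.50, SE 0.19, limma adjusted p = 0.183). From the longest transcript these values correspond to an estimated 58, 80 and 94 fragments after saline and 115, 74 and 144 after morphine, with a 95% Poisson interval of 44 to 75 for the smallest saline value, which covers counting error alone. Setd6, which methylates the NF-kappaB subunit RelA, was at 9.25 ± 0.819 and 11.3 ± 1.83 FPKM.

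H4K20 methylation is started by Kmt5a and extended by Kmt5b and Kmt5c. Kmt5b measured 8.42, 8.41 and 9.27 FPKM after saline and 7.87, 7.78 and 8.07 after morphine, which did not overlap (log2 fold change -0.12, SE 0.07, limma adjusted p = 0.360). Kmt5a was the most abundant of the 3, at 37.0 ± 3.63 and 34.6 ± 4.87 FPKM, and was higher in saline 1, saline 2 and morphine 2, with 39.5, 38.6 and 32.8 FPKM after saline and 31.7, 40.2 and 31.9 after morphine. Kmt5c was at 13.1 ± 1.82 and 12.5 ± 2.30 FPKM (SD, n = 3 each).

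Of the tested demethylases of H3K4 and H3K36, 3 of 8 were lower at an unadjusted p under 0.05, and of those of H3K9, 1 of 6, beside 11.1% of all genes, and limma called 0 in either family. Kdm2a, a JmjC demethylase of H3K36me2 that binds unmethylated CpG islands (chromosome 19, 4314419 to 4398285, minus strand), measured 12.2, 13.3 and 12.8 FPKM after saline and 11.1, 9.29 and 9.87 after morphine. All morphine values were lower, morphine 2 the lowest, and the ratio of means was 0.789 (log2 fold change -0.32, SE 0.08, 95% interval -0.51 to -0.12, limma adjusted p = 0.0853). Its close relative Kdm2b, which brings Polycomb complexes to CpG islands, overlapped at 5.37 ± 0.710 and 5.03 ± 0.554 FPKM (SD, n = 3 each). Kdm1a (LSD1), the flavin enzyme of the CoREST complex that removes H3K4me1 and H3K4me2, measured 21.6, 21.1 and 22.1 FPKM after saline and 20.6, 17.9 and 19.0 after morphine. These groups did not overlap, though morphine 1 came close to saline 2 (log2 fold change -0.17, SE 0.07, limma adjusted p = 0.220).

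The Kdm5 enzymes remove H3K4me3, and their genes diverged in sign. Kdm5b measured 7.44, 5.36 and 7.41 FPKM after saline and 5.74, 4.40 and 4.98 after morphine. Saline 2 lay inside the morphine range, and replicate 2 was the lowest of its group in both (log2 fold change -0.35, SE 0.14, limma adjusted p = 0.203). Kdm5a was at 9.57 ± 0.596 and 10.9 ± 1.69 FPKM, with 12.8 FPKM in morphine 1 above all others, and the X-linked Kdm5c was at 8.23 ± 0.720 and 7.65 ± 1.22 FPKM (SD, n = 3 each). Of the low genes of this group, Kdm1b, the paralog of Kdm1a, was at 3.38 ± 0.480 and 3.23 ± 0.203 FPKM, and Kdm8 at 1.19 ± 0.346 and 1.39 ± 0.391 FPKM.

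Among demethylases of H3K9, 5 of the 6 tested fold changes were below 0, as were those of 7765 of all 14614 tested genes. Kdm3a, a demethylase of H3K9me1 and H3K9me2 induced by hypoxia (chromosome 6, 71588972 to 71632990, minus strand), measured 11.3, 10.9 and 9.75 FPKM after saline and 8.91, 9.19 and 7.96 after morphine. The groups did not overlap (ratio of means 0.815, log2 fold change -0.27, SE 0.09, limma adjusted p = 0.136). Kdm7a, which acts on H3K9 and H3K27, was lower in all 3 morphine libraries by a small step, at 4.88 ± 0.0721 and 4.48 ± 0.203 FPKM. Kdm4a and Kdm4b, which remove H3K9me3, were level at 12.0 and 13.6 FPKM after saline and 11.7 and 13.8 FPKM after morphine, Kdm4c was at 6.02 and 5.66 FPKM, and Kdm4d stayed under the level for testing at 0.653 ± 0.0208 and 0.680 ± 0.175 FPKM. Kdm3b, the paralog of Kdm3a, was at 6.49 ± 0.390 and 5.64 ± 0.689 FPKM, with 24.6% of its exonic sequence covered by a noncoding gene on the opposite strand. The 7 genes summed to between 53.9 and 54.6 FPKM after saline and between 48.4 and 52.6 after morphine, one of the 3 family sums without overlap.

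**Figure D3:**
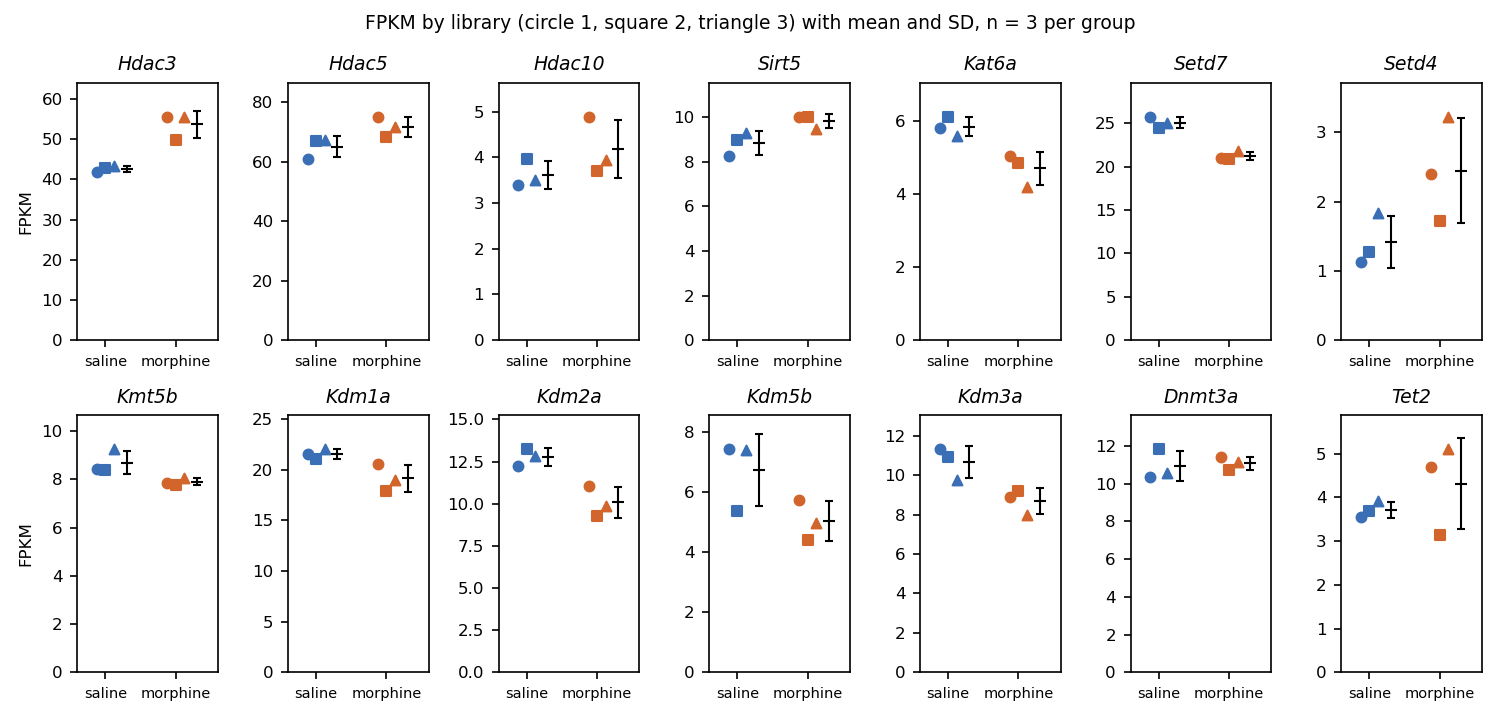
FPKM by library on axes that start at 0 for the 8 genes with an unadjusted p under 0.05 and for the gene with the smallest p in each of the other 6 families, with mean and SD beside the points (n = 3 per group). Hdac3 is higher and Setd7, Kdm2a, Kdm3a and Kat6a are lower in all 3 morphine libraries, while Tet2, Hdac10 and Setd4 overlap.

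The enzymes of DNA methylation differed little between the groups. Dnmt3a, the de novo methyltransferase of neurons, measured 10.4, 11.8 and 10.6 FPKM after saline and 11.4, 10.7 and 11.2 after morphine. The morphine values lay wholly inside the saline range (log2 fold change 0.02, SE 0.08, 95% interval -0.16 to 0.20, limma adjusted p = 0.893), and the sign of the difference turned when values were rescaled to TPM or when saline 1 or saline 3 was left out. Dnmt1, the maintenance enzyme of replicating DNA, was at 9.35 ± 0.406 and 9.26 ± 1.38 FPKM, so the ratio of Dnmt3a to Dnmt1 was 1.17 ± 0.139 and 1.21 ± 0.150 (SD, n = 3 each). Dnmt3b lay between 0.15 and 0.24 FPKM, an estimated 13 to 24 fragments per library. Dnmt3l, a cofactor without catalytic activity known from germ cells, was listed at 0 in saline 1, which allows up to 3.69 fragments (95% exact Poisson interval), and reached 0.40 FPKM in saline 2, or 17 estimated fragments. Neither gene was in the test, and their groups overlapped.

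Of the TET dioxygenases, Tet2 and Tet3 reached the level for testing. Tet2 measured 3.54, 3.68 and 3.91 FPKM after saline and 4.69, 3.14 and 5.11 after morphine, where 2 libraries lay above and morphine 2 below the saline range (log2 fold change 0.15, SE 0.15, limma adjusted p = 0.586). Tet3, the main form in many neurons, was at 3.25 ± 0.129 and 3.14 ± 0.156 FPKM. Tet1 was at 0.970 ± 0.161 and 0.793 ± 0.0252 FPKM and was not tested, since it reached 1 FPKM in saline 2 alone. In a fit of unfiltered genes Tet1 had a log2 fold change of -0.13 and a limma adjusted p of 0.602. Summed Dnmt over summed TET was 2.61 ± 0.118 after saline and 2.53 ± 0.139 after morphine (SD, n = 3 each).

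The morphine libraries differed from each other more than the saline libraries did in these genes. The median coefficient of variation over the 60 was 5.58% after saline and 10.5% after morphine, beside 7.97% and 9.49% over all tested genes, and it was larger after morphine for 43 of the 60 (59.1% of all genes). Morphine 1 held the highest of the 6 values in 21 of the 60 genes (35.0%, against 19.8% of all genes), with members from Hdac, Sirt, Kat, Kmt2, Setd, Kdm and Dnmt genes. Morphine 2 held the lowest value in 22 (36.7%, against 21.6% of all genes). In 10 genes, of several families, morphine 1 held the highest and morphine 2 the lowest value: Dnmt1, Hdac6, Kat6b, Kdm4b, Kmt2a, Kmt2c, Kmt2e, Setd2, Setd5 and Sirt1. Kat8, Kat2b, Kmt5a, Sirt3 and Tet2 also had both ends in morphine, in other pairs of libraries. The share of all genes with both ends in morphine was not computed.

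**Figure D4:**
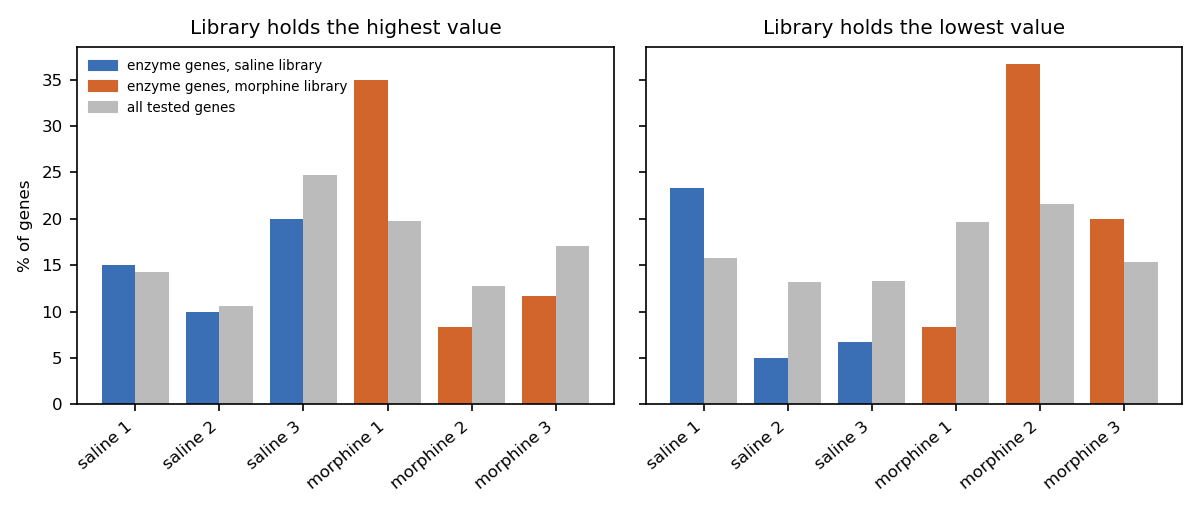
Share of genes (vertical axis, %) whose highest value (left) or lowest value (right) of the 6 is in each library, for the 60 tested enzyme genes (blue and orange) and all 14614 tested genes (grey). Morphine 1 reaches 35.0% on the left and morphine 2 reaches 36.7% on the right, both above the grey bars.

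These genes are long, and fold changes in the series ran lower with transcript length. Their median exonic length was 6064 nt against 4170.5 nt over all tested genes, and 29 of the 60 were in the longest of 4 equal groups (6596 nt or more), where their median log2 fold change was -0.08, as it was for all genes there. Across the 60 genes Spearman's rho between exonic length and fold change was -0.35, and across 14588 genes with an annotated length it was -0.31; genes of 1 library share its depth and length bias and are not independent replicates. With the length trend removed, the median of the 60 was 0.02 in place of -0.04, 5 genes were higher and 3 lower at an unadjusted p under 0.05, and 0 passed. The FPKM of all genes summed to between 662470 and 670280 in the saline libraries and between 720234 and 741145 in the morphine libraries. Rescaled to TPM, which makes these sums equal and moved the median over all genes from -0.02 to -0.13, the median of the 60 was -0.15. Of the 60, 4 then passed as lower (Setd7, Kdm2a, Kdm3a and Kat6a), beside 853 of all 14614 tested genes. The part of length in the difference of any single gene was not tested.

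**Figure D5:**
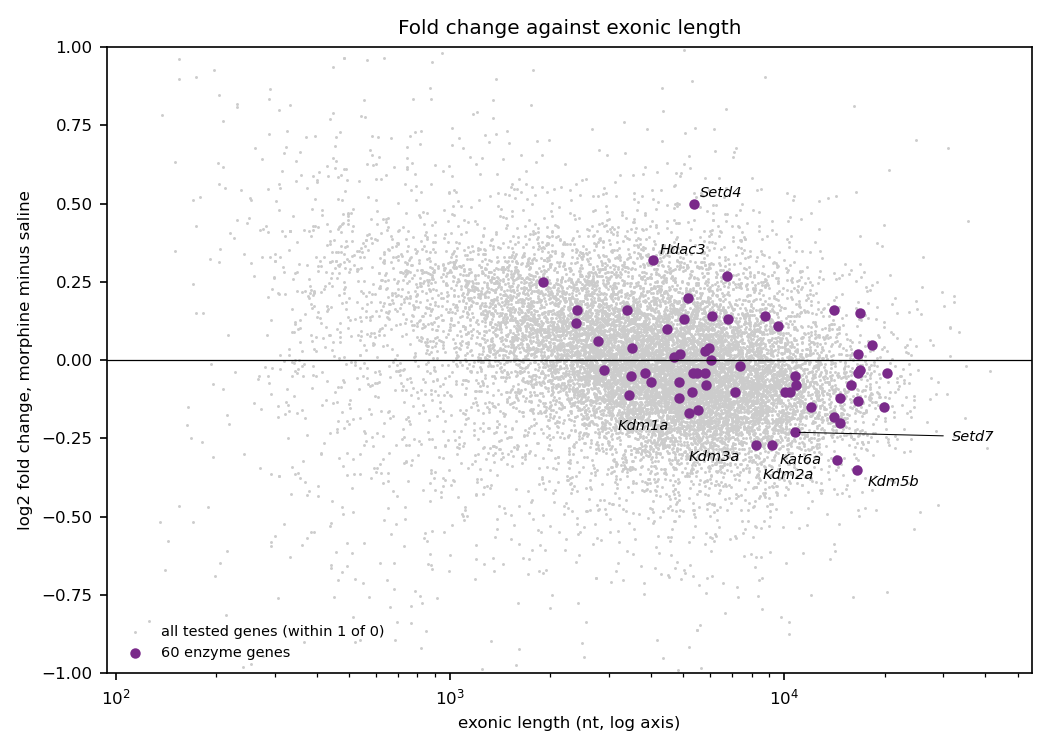
Log2 fold change (morphine minus saline, vertical axis) against exonic length in nt (log axis) for the 60 enzyme genes (purple) over all tested genes within 1 log2 unit of 0 (grey). Kdm2a, Kdm5b, Setd7 and Kat6a lie at the long end below 0, and Hdac3 and Setd4 are above 0 at middle lengths.

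Partner genes were counted in 9 lists of subunits, other writers and erasers, and readers. Of 127 genes 125 were tested, and limma called 1 at an adjusted p under 0.05 (13 higher and 14 lower at an unadjusted p under 0.05, or 21.6% against 22.3% of all genes). The 1 gene was Sgf29, the SAGA subunit that reads H3K4me3 beside Kat2a, which rose from 13.8, 12.7 and 15.4 FPKM after saline to 21.3, 19.7 and 20.5 after morphine (log2 fold change 0.53, limma adjusted p = 0.0462). No partner gene passed when saline 1, saline 2, saline 3, morphine 1 or morphine 3 was left out, and 6 did without morphine 2. No other subunit of the 21 in the acetyltransferase complexes passed, and 12 of the 21 were below 0, as were 7765 of all 14614 tested genes.

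The paralogous acetyltransferases Ep300 and Crebbp, transcriptional coactivators that also acetylate H3K27, stood on opposite sides. Ep300 measured 7.54, 6.98 and 7.62 FPKM after saline and 6.32, 5.01 and 5.43 after morphine, and Crebbp 5.76, 5.51 and 5.76 after saline and 10.6, 6.76 and 8.69 after morphine. Neither pair of groups overlapped and neither gene passed (limma adjusted p = 0.0927 and 0.0948). Crebbp is named outside the rule, after its values were seen. Among 21 corepressor subunits that hold Hdac1, Hdac2 or Hdac3, 0 passed limma's test. At an unadjusted p under 0.05, 3 were higher and 3 lower (28.6%, against 22.3% of all genes). Sin3b had the smallest p at 31.3 ± 1.24 and 37.7 ± 1.10 FPKM (limma adjusted p = 0.0671).

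The remaining lists had 0 calls by limma, and their shares at an unadjusted p under 0.05 ran from 9.09% to 33.3%, around the 22.3% of all genes. Of the 11 COMPASS subunits, which serve the Kmt2 and Setd1 enzymes, 1 was at an unadjusted p under 0.05 (Paxip1, 8.13 ± 1.43 and 10.1 ± 0.326 FPKM), and of 19 other lysine methyltransferases 4 were, with Prdm2 at 8.79 ± 0.539 and 6.77 ± 0.370 FPKM. The same count was 1 of 8 other demethylases (Jmjd1c, 9.41 ± 0.450 and 7.69 ± 0.334 FPKM) and 2 of 9 arginine methyltransferases (Prmt8, 6.35 ± 0.416 and 4.71 ± 0.564 FPKM). Among readers it was 3 of 9 bromodomain genes (Baz2b, 11.9 ± 0.983 and 14.2 ± 0.894 FPKM) and 4 of 17 readers and cofactors of DNA methylation (Mbd3, a NuRD subunit, 79.4 ± 1.98 and 92.2 ± 5.84 FPKM; SD, n = 3 each).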

How the data were processed

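FPKM values were computed by the authors and deposited to 2 decimals. For these, bcl2fastq 2.19.0, Trimmomatic, STAR, RSEM and mm10 are named in the submitters' processing notes, with other versions, annotation and strand setting not given in the sources used here. Libraries came from total RNA with the KAPA stranded kit, per the labels. The columns were not rescaled. Groups were compared by limma 3.58.1 under R 4.3.3 on log2(FPKM + 1) with an intensity trend, two-sided, Benjamini-Hochberg adjusted over the 14614 genes that reached 1 FPKM in 3 or more libraries; log2 fold changes on this scale understate changes of low genes. The fit was tested on simulated data (5 simulations, 200 changed genes among 14614). It recovered 7.84% of 1.25-fold, 33.1% of 1.5-fold and 66.7% of 2-fold changes, and 3.51% of its calls were false. Most changes of 1.25-fold would thus be missed. Depth was estimated from the steps of low FPKM values, of which 77.6% to 80.4% lay within 0.05 of a whole fragment or within the table's rounding; fragments per gene use the longest transcript. Positions, lengths and overlaps are from GENCODE M21 (mm10), and promoters from RefSeq. The members and lists were chosen with earlier results of these data known. Test values were given for genes at an unadjusted p under 0.05, or the smallest p of a family or list; all other members by level. Python 3.11.15, pandas 2.3.3, SciPy 1.17.1 and matplotlib 3.10.9 did the rest. Some marker gene results are not reported here.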

Additional observations from a re-analysis of the deposited data

How the results depend on the processing

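The fit as designed called 220 genes (138 higher, 82 lower), 0 of the 60 enzyme genes and 1 partner gene. Over all genes the count was 8 with no filter on low values, 385 with at least 1 FPKM in all 6 libraries, 954 rescaled to TPM (101 higher, 853 lower), 102 after quantile normalization (47 higher, 55 lower), 662 after median scaling (518 higher, 144 lower), 36 with no intensity trend, 29 with the length trend removed and 899 with the motor neuron list as a covariate. Leaving out 1 library gave 0 to 822, the highest without morphine 2. Of the enzyme genes, 4 passed rescaled to TPM, 1 with the filter in all 6 libraries, 1 after median scaling (Hdac3 in both), 2 with the motor neuron covariate (Hdac3 and Sirt2), and 0 to 1 when a library was left out (Hdac3, without morphine 2). Of the partner genes, 12 passed rescaled to TPM, 3 after median scaling, 4 with the covariate and 0 with no filter, no intensity trend or the length trend removed, and 0 to 6 when a library was left out. The cause was not tested. Same-numbered libraries correlated in their deviations at -0.13, 0.16 and 0.29. Saline 1 correlated best with morphine 2 (0.24), while saline 2 and saline 3 each correlated best with the morphine library of the same number. The libraries also differ in marker levels, so these values cannot decide whether the replicate numbers pair the libraries. With the replicate block, 24 genes, 0 enzyme genes and 0 partner genes passed, and 7, 0 and 0 with the block and the length trend removed. The sign of 13 of 14 enzyme genes with a test value was the same in all 18 other settings; that of Dnmt3a turned to -0.10 rescaled to TPM, and ranged from -0.01 to 0.08 when a library was left out. Genes under 1 FPKM are limited by depth.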
